A study of Mus musculus with 31 samples.

Results

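The 10 genes described here encode transcription factors that were listed together under the oligodendrocyte lineage of the central nervous system. They are the basic helix-loop-helix factors Olig1 and Olig2, the homeodomain factors Nkx2-2 and Nkx6-2 and the SoxE factor Sox8. The others are the SoxD factors Sox5, Sox6 and Sox13, the myelin gene regulatory factor Myrf and the zinc-finger factor Zbtb20. The genes were taken by symbol, and all 10 have a row among the 47729 genes listed in the series. The series profiled RNA from pieces of olfactory and trigeminal nerve cut by laser from frozen sections of Sox10:H2BVenus BAC transgenic mouse embryos, in which a fluorescent histone marks cells that use Sox10 regulatory sequence. Olfactory nerve was cut where it runs through the mucosa, the olfactory nerve layer (ONL) around the olfactory bulb was cut at E13.5 and, as an outer and an inner part, at E16.5, and trigeminal nerve branches near the olfactory system were cut at E16.5. Of the 31 libraries, 4 are of olfactory nerve at E11.5, 7 of olfactory nerve and 5 of ONL at E13.5, and, at E16.5, 4 each of olfactory nerve, outer ONL and inner ONL and 3 of trigeminal nerve. The E16.5 pieces of a group came from different embryos, but those of different groups were cut from shared sections, so the E16.5 groups share embryos, and the labels do not say whether a shared replicate number marks a shared embryo. All groups carry the same transgene and none was treated. The pieces also hold axons, vessels and connective tissue, so a level below is that of a piece and not of its glia, and fewer cells of a type cannot be told apart from less RNA per cell. The inner and outer ONL pieces were cut by position, without a visible boundary between them.

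Oligodendrocyte precursors arise from progenitors that make Olig2, and Olig1, Nkx2-2 and Nkx6-2 act with it in specification and maturation. Sox10 and its close relative Sox8 then drive glial and myelin genes, Sox5 and Sox6 counteract them in precursors, and Myrf switches on the myelin programme. Olfactory ensheathing cells (OECs), the glia of the olfactory nerve and ONL, and Schwann cells, the glia of the trigeminal nerve, come from the neural crest, depend on Sox10, and are not of this lineage.

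The questions put to the data were how the factors differed between the mucosal and ONL parts of the olfactory nerve, between both and trigeminal nerve, and between stages. Libraries held between 3512627 and 36705535 counts. A gene with at most 3 counts in a library was taken as undetected there, a limit that allows for counting error alone. Levels are CPM, counts scaled for library size and composition with edgeR's TMM factors, given as mean ± SD over libraries, and changes are log2 fold changes ± SE from edgeR's quasi-likelihood test, called at a Benjamini-Hochberg adjusted p under 0.05 over the 19332 genes tested. For 10 of the 16 E11.5 and E13.5 libraries the label names another group than the one whose published mean they make up. The groups at these stages follow those means throughout. Where grouping by label changes a call of a member, the value by label stands in the same paragraph, and counts over the other gene lists were made on the groups of the means only. Several early libraries share an embryo, the labels do not say which, and p-values of every comparison with an early group are therefore too small. The spread of each gene was estimated from all 31 libraries, so p-values of the E16.5 comparisons draw on the early libraries as well. With the E16.5 libraries fitted alone, the number of members called in each E16.5 comparison was the same. Sox10 was found in every library, from 39.9 to 712 CPM.

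Of the 10 factors, 8 passed the filter on low counts and were tested. Nkx2-2 (chr2:147177546-147194243, minus strand) was close to absent, with 2 counts in total, at most 1 in any library and 0 in 29 of 31. Nkx6-2 (chr7:139579376-139582797, minus strand) had 60 counts in total and rose over 3 counts in 3 libraries, with 15 and 22 counts in 2 E11.5 olfactory nerve libraries and 4 in 1 outer ONL library. The exon sequence of Nkx6-2 overlaps Inpp5a on the other strand by 246 bases, and the library kit does not mark strand. Nkx6-1, the related homeodomain gene of the precursor list described further on, was at or under 3 counts in every library of 6 groups and averaged 0.32 ± 0.65 CPM (SD, n = 4) at E11.5. Neither homeodomain member thus gave a signal that could be compared between groups at this depth.

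**Figure D1:**
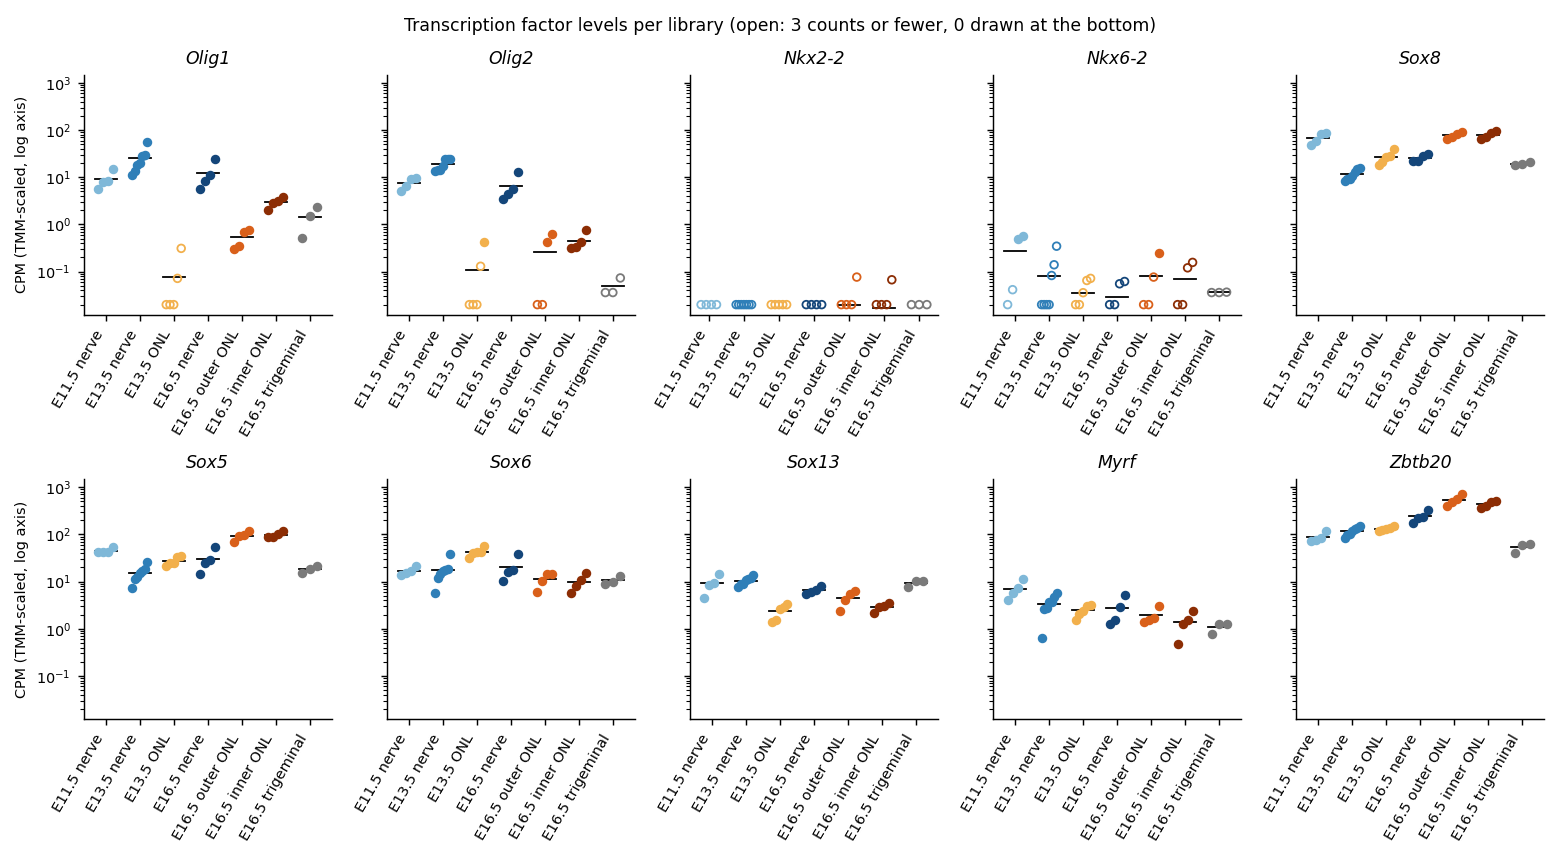
Level of each factor in every library, in CPM scaled with TMM on a log axis, by group. Filled points are libraries over 3 counts, open points are libraries at 3 counts or fewer with 0 drawn at the bottom, and bars are group means. Olig1 and Olig2 lie above 3 CPM in all olfactory nerve libraries and below 1 CPM in all E13.5 and outer ONL libraries, whereas the group means of Sox8, Sox5 and Zbtb20 are highest in the E16.5 ONL.

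Olig1 and Olig2 were found mainly in mucosal olfactory nerve. They are neighbours on chromosome 16 (GRCm38, Olig1 a single exon at chr16:91269772-91271933 and Olig2 at chr16:91225457-91228677, both on the plus strand) and correlated over the 31 libraries with a Pearson r of 0.90 in log2 CPM, as a description. RefSeq gives a promoter window for Olig2 and 7 further members. The bases before the annotated first exon of Olig2 are shown because Olig2 separated nerve from ONL at both stages, with capitals marking the letters CCAAT or their reverse complement (GRCm38.p6, chr16:91225300-91225456, plus strand, 157 bases).
Olig2: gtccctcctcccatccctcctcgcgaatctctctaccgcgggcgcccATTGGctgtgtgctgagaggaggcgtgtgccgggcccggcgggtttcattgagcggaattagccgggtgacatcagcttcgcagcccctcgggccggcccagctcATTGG
CCAAT occurs on either strand in 33.8% of the 32851 RefSeq windows of 250 bases before a start.

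At E16.5, Olig2 measured 3.38, 4.45, 5.69 and 13.0 CPM in the 4 olfactory nerve libraries. The outer ONL libraries read 0, 0, 0.43 and 0.63 CPM and those of inner ONL 0.31, 0.34, 0.42 and 0.75 CPM. Trigeminal nerve read 0.04, 0.04 and 0.07 CPM, with no library over 3 counts. Every olfactory nerve library was above every library of the other 3 groups, and inner and outer ONL overlapped. Olig2 was lower in outer ONL (log2 fold change -4.55 ± 0.65, adjusted p = 3.69e-06) and inner ONL (-3.85 ± 0.62, adjusted p = 9.15e-06) than in olfactory nerve. It was higher in olfactory than in trigeminal nerve (adjusted p = 3.32e-07), at least 60.9-fold by group means with trigeminal nerve set at 3 counts a library.

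Olig1 followed the same order between nerve and ONL but was also detected in trigeminal nerve. It measured 5.69, 8.32, 11.4 and 24.3 CPM in E16.5 olfactory nerve and 0.31, 0.36, 0.69 and 0.77 CPM in outer ONL. It measured 2.02, 2.89, 3.14 and 3.76 CPM in inner ONL and 0.50, 1.54 and 2.31 CPM in trigeminal nerve. Olfactory nerve again stood above all other E16.5 libraries, and every inner ONL library was above every outer ONL library. Olig1 was lower in outer ONL (-4.55 ± 0.60, adjusted p = 1.21e-06) and inner ONL (-2.08 ± 0.51, adjusted p = 0.00183) than in olfactory nerve, higher in olfactory than in trigeminal nerve (3.09 ± 0.59, adjusted p = 2.13e-04), and higher in inner than in outer ONL (2.47 ± 0.59, adjusted p = 0.00377). With the early libraries of the same fit grouped by label, the inner against outer ONL difference had an adjusted p of 0.111 and the inner ONL against olfactory nerve difference one of 0.0638.

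Markers of the olfactory epithelium and its sensory neurons moved with Olig1 and Olig2 between olfactory nerve and ONL. Their summed level over 10 genes ran from 320.5 to 702 CPM in E16.5 olfactory nerve, from 53.1 to 80.6 CPM in outer ONL, from 39.8 to 68.0 CPM in inner ONL and from 216 to 293 CPM in trigeminal nerve. Of the 10, 9 were called lower in outer ONL than in olfactory nerve (11.8% of all genes). In olfactory against trigeminal nerve 8 were called higher (13% of all genes). At the earlier stages 8 were lower in ONL than in nerve at E13.5 (16.1% of all genes), with sums of 136 to 229 CPM against 419 to 861 CPM. From E11.5 nerve, at 259 to 347 CPM, to E13.5 nerve 7 rose and 0 fell (20.2% and 16.4% of all genes). The list did not move with the Olig genes in every comparison. From E13.5 to E16.5 nerve, where Olig2 was called lower, 3 rose and 1 fell (15.2% and 13.6% of all genes). In inner against outer ONL, where Olig1 was called higher, 1 was higher and 3 were lower (8.2% and 5.94% of all genes). The basal cell keratin Krt5 was at or under 3 counts in all libraries of both ONL parts and averaged 12.2 ± 7.45 CPM (SD, n = 4) in olfactory nerve. Replicate 4 of olfactory nerve had the highest sum of that list and the highest Olig1 and Olig2, whereas replicate 2, with the lowest sum, had the lowest Olig1 but the second highest Olig2 (5.69 CPM) and the highest Sox10. The part of these cells in the Olig1 and Olig2 levels was not tested.

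The separation of nerve and ONL was wider at E13.5. Olig2 ranged from 13.6 to 24.9 CPM with a median of 17.5 CPM in the 7 E13.5 olfactory nerve libraries, and read 0, 0, 0, 0.13 and 0.42 CPM in the 5 ONL libraries. Olig1 ranged from 11.3 to 55.6 CPM with a median of 20.1 CPM in nerve and read 0, 0, 0, 0.07 and 0.31 CPM in ONL, no library of which passed 3 counts. The groups did not overlap for either gene. Here too some libraries share an embryo and the p-values are too small. Olig1 was called lower in ONL (adjusted p = 1.33e-10), at least 76.4-fold by group means with ONL set at 3 counts a library. The fitted change of Olig2 was -7.58 ± 0.70 (adjusted p = 6.04e-10), a size that depends on the prior count since 1 of the 5 ONL libraries held over 3 counts. Grouped by label, 1 of these 5 ONL libraries joins the E13.5 nerve group and nerve libraries with both genes make up the ONL group, and the changes were then -0.68 (adjusted p = 0.512) for Olig1 and -0.92 (adjusted p = 0.36) for Olig2.

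Within olfactory nerve, both genes had their highest mean at E13.5, tested with the same limit of shared embryos. Olig1 measured 5.68, 7.85, 8.26 and 15.1 CPM and Olig2 5.14, 6.43, 9.01 and 9.61 CPM in the E11.5 libraries. From E11.5 to E13.5 Olig1 rose by 1.46 ± 0.45 (adjusted p = 0.0114) and Olig2 by 1.33 ± 0.47 (adjusted p = 0.0254) on the log2 scale, with an overlap between stages for Olig1 and none for Olig2. The Olig2 call was lost without the library labelled E13.5 ONL replicate 3 (adjusted p = 0.0548) or replicate 4 (adjusted p = 0.0793), both of the E11.5 nerve group. From E13.5 to E16.5 Olig2 fell by 1.51 ± 0.47 (adjusted p = 0.0162), a call lost without E16.5 olfactory nerve replicate 1 (adjusted p = 0.0622) or replicate 3 (adjusted p = 0.0884), and Olig1, at 25.3 ± 15 CPM (SD, n = 7) and 12.4 ± 8.27 CPM (SD, n = 4), did not pass the test. By label, the change of Olig2 from E13.5 to E16.5 was -1.35 (adjusted p = 0.198), and the E11.5 nerve group, made then of libraries at or near 0, gave a rise of 6.80 ± 1.15 for Olig2 and 7.67 ± 1.24 for Olig1 by E13.5.

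In order of mean level, Olig2 ran from E13.5 nerve over E11.5 nerve, E16.5 nerve, inner ONL, outer ONL and E13.5 ONL to trigeminal nerve. Neighbours overlapped, except that E13.5 nerve stood above E11.5 nerve and E16.5 nerve above inner ONL. Olig1 ran from E13.5 nerve over E16.5 nerve, E11.5 nerve, inner ONL, trigeminal nerve and outer ONL to E13.5 ONL, with overlap between neighbours except between E11.5 nerve and inner ONL. The genes whose log2 CPM was most like Olig1 over the 31 libraries were Klc3 (r = 0.92), Olig2 and Tesc (r = 0.88), and those most like Olig2 were Cystm1 (r = 0.96), Smim22 (r = 0.95) and Gm13648 (r = 0.94). The median r of all tested genes was 0.01 with either.

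**Figure D2:**
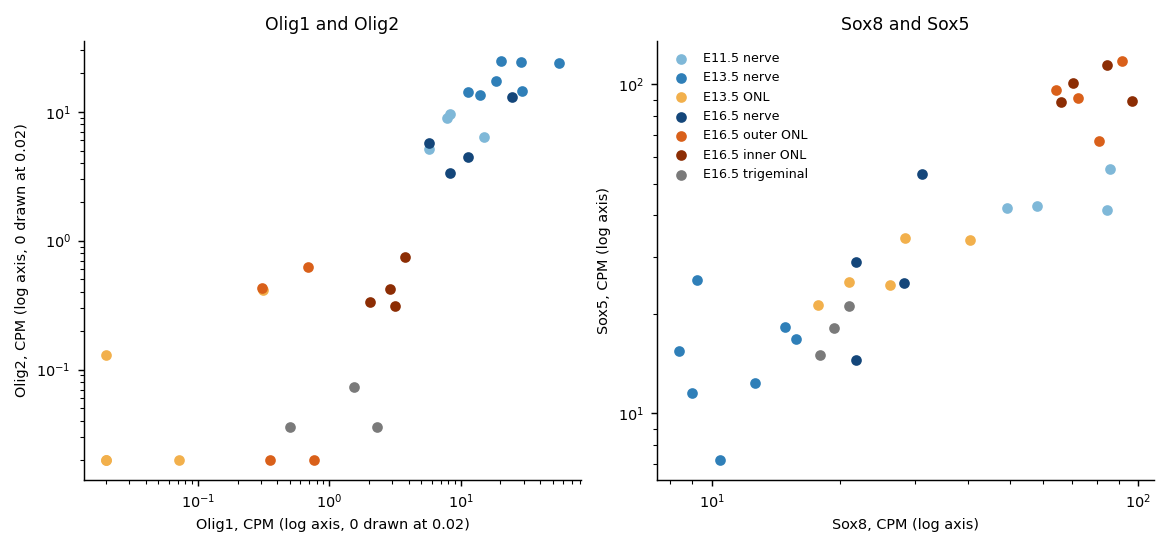
Olig1 against Olig2 and Sox8 against Sox5 in the 31 libraries, in CPM on log axes, coloured by group, with 0 drawn at 0.02. All olfactory nerve libraries lie at the upper right for Olig1 and Olig2, and the 8 E16.5 ONL libraries have the highest Sox5.

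Sox8, the SoxE relative of Sox10, and Sox5, a SoxD factor that lacks an activation domain of its own, moved together, and opposite to the Olig genes between ONL and olfactory nerve at E16.5. Their log2 CPM correlated over the 31 libraries with r = 0.90. The bases before the RefSeq start of both are shown because these members moved together (GRCm38.p6, 250 bases each, minus strand, Sox8 at chr17:25570687-25570936 and Sox5 at chr6:143947107-143947356, in the direction of transcription). Capitals mark ACAAT or ACAAAG, letters that Sox proteins bind, and the E-box letters CANNTG that basic helix-loop-helix proteins bind, on either strand.
Sox8: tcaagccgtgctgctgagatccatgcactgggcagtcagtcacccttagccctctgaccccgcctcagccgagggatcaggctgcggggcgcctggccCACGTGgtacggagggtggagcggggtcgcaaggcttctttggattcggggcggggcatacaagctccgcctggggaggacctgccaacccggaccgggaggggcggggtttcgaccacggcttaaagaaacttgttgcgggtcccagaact
Sox5: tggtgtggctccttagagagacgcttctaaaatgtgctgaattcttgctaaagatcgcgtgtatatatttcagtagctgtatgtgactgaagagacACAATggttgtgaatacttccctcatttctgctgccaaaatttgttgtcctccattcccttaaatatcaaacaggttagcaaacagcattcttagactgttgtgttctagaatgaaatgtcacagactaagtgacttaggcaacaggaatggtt
Each window holds 1 match, which is a description only, since CANNTG occurs in 66.2% of the 32851 windows of that length, ACAAT in 27.7% and ACAAAG in 5408 of the 32851. The RefSeq start of Sox5 used here lies inside the longer GENCODE gene, chr6:143828425-144781977, and the window in its body. Sox8 itself spans chr17:25565892-25570686. Its window lies in the first exon of the antisense gene 2810468N07Rik, which also covers 329 bases of Sox8 exon and held 18692 counts over the libraries. Reads from the shared bases cannot be told apart, and 2810468N07Rik was the gene most like Sox8 (r = 0.93) and among the 3 most like Sox5 (r = 0.92), which lies on another chromosome.

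At E16.5, Sox8 measured 21.7, 21.8, 28.3 and 31.1 CPM in olfactory nerve and 64.3, 72.5, 80.9 and 91.5 CPM in outer ONL. It measured 66.1, 70.3, 84.6 and 96.7 CPM in inner ONL and 17.9, 19.3 and 20.9 CPM in trigeminal nerve. All 8 ONL libraries were above all nerve libraries, and the ONL parts overlapped. Sox8 was higher in outer ONL (1.59 ± 0.23, adjusted p = 4.89e-06) and inner ONL (1.63 ± 0.23, adjusted p = 1.43e-06) than in olfactory nerve and higher in outer ONL than in trigeminal nerve (1.99 ± 0.26, adjusted p = 5.42e-07).

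Sox5 measured 14.5, 24.9, 28.8 and 53.4 CPM in E16.5 olfactory nerve and 67.3, 90.7, 96.4 and 118 CPM in outer ONL. It measured 88.4, 88.9, 101 and 115 CPM in inner ONL and 15.1, 18.2 and 21.3 CPM in trigeminal nerve. The ONL libraries again stood above both nerves, while 1 olfactory nerve library lay below and 3 above the trigeminal range. Sox5 was higher in outer ONL than in olfactory nerve (1.61 ± 0.30, adjusted p = 1.39e-04) and in trigeminal nerve (2.36 ± 0.34, adjusted p = 2.89e-06), and higher in inner ONL than in olfactory nerve (1.69 ± 0.30, adjusted p = 3.43e-05).

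Both genes dipped in olfactory nerve at E13.5, in tests whose p-values are too small because early libraries share embryos. Sox8 measured 49.4, 57.8, 84.5 and 86.0 CPM at E11.5, ranged from 8.38 to 15.7 CPM with a median of 10.5 CPM at E13.5, and so fell by 2.61 ± 0.20 on the log2 scale (adjusted p = 2.78e-11). Sox5 measured 41.4, 42.0, 42.8 and 55.2 CPM at E11.5, ranged from 7.24 to 25.5 CPM with a median of 15.5 CPM at E13.5, and fell by 1.57 ± 0.25 (adjusted p = 1.53e-05). The stages did not overlap for either gene. By label neither fall passed the test (Sox8 -0.63, adjusted p = 0.234, and Sox5 -0.56, adjusted p = 0.254). From E13.5 to E16.5 Sox8 rose by 1.17 ± 0.20 (adjusted p = 5.79e-05) and Sox5 by 0.99 ± 0.26 (adjusted p = 0.00394). The Sox5 rise was 0.58 without E16.5 olfactory nerve replicate 2 (adjusted p = 0.0922), and by label the rises were 0.77 for Sox8 (adjusted p = 0.105) and 0.77 for Sox5 (adjusted p = 0.0759).

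The ONL stood above nerve at E13.5 as well, with the same limit on p. Sox8 measured 17.8, 21.0, 26.3, 28.4 and 40.3 CPM and Sox5 21.3, 24.5, 25.2, 33.8 and 34.2 CPM in the ONL libraries, so that Sox8 did not overlap E13.5 nerve and Sox5 did. Sox8 was higher in ONL by 1.24 ± 0.19 (adjusted p = 5.72e-06) and Sox5 by 0.87 ± 0.24 (adjusted p = 0.00634), and both calls held by label, with 1.96 ± 0.33 and 1.16 ± 0.30. From E13.5 ONL to E16.5 outer ONL, Sox8 rose by 1.52 ± 0.22 (adjusted p = 1.36e-06) and Sox5 by 1.74 ± 0.28 (adjusted p = 8.31e-06), and by label Sox8 did not pass the test (0.40, adjusted p = 0.429). In order of mean level, Sox8 ran from inner ONL over outer ONL, E11.5 nerve, E13.5 ONL, E16.5 nerve and trigeminal nerve to E13.5 nerve, with overlap between neighbours except between E11.5 nerve and E13.5 ONL, between E16.5 nerve and trigeminal nerve, and between trigeminal and E13.5 nerve. Sox5 ran in the same order apart from E16.5 nerve standing above E13.5 ONL, with gaps below outer ONL and below E13.5 ONL. After 2810468N07Rik, the genes most like Sox8 were Mmp17 (r = 0.93) and Cd47 (r = 0.91), and those most like Sox5 were Anks1b (r = 0.92) and Bcar3 (r = 0.90).

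Sox6 and Sox13, the other SoxD factors, at chr7:115470872-116038796 and chr1:133382303-133424377 on the minus strand, did not follow Sox5 into this pattern. Sox6 measured 31.2, 39.4, 41.5, 42.3 and 56.1 CPM in E13.5 ONL and ranged from 5.72 to 39.3 CPM with a median of 16.4 CPM in E13.5 nerve, where only the highest library reached the ONL range. Tests of Sox6 and Sox13 with an early group carry the limit of shared embryos. Sox6 was higher in E13.5 ONL than in nerve (1.24 ± 0.32, adjusted p = 0.00318) and lower in E16.5 outer ONL, at 5.98, 10.03, 14.4 and 14.5 CPM, than in E13.5 ONL (-1.90 ± 0.39, adjusted p = 2.49e-04). By label the difference was -0.25 (adjusted p = 0.644) between ONL and nerve and -0.57 (adjusted p = 0.272) between the stages of ONL, and a fall from E11.5 to E13.5 nerve was called by label only (-1.17 ± 0.36, adjusted p = 0.0226). At E16.5 it measured 10.2, 15.6, 17.7 and 37.5 CPM in olfactory nerve, 5.78, 8.08, 10.7 and 15.04 CPM in inner ONL and 8.85, 9.87 and 12.9 CPM in trigeminal nerve, and at E11.5 14.0, 14.97, 16.4 and 21.7 CPM. Group means ran from 42.1 ± 8.96 CPM (SD, n = 5) in E13.5 ONL over 20.2 ± 11.9 CPM (n = 4) in E16.5 nerve, E13.5 nerve, E11.5 nerve, outer ONL and trigeminal nerve to 9.89 ± 3.97 CPM (n = 4) in inner ONL, and every neighbouring pair overlapped.

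The lower Sox6 of inner ONL than of olfactory nerve (-1.03 ± 0.40, adjusted p = 0.044) rested on few libraries. It fell to -0.55 without olfactory nerve replicate 2 (adjusted p = 0.314) and lost the call without inner ONL replicate 1 (adjusted p = 0.144), 3 (0.0911) or 4 (0.0664) or any 1 of the 3 trigeminal nerve libraries (0.0533 to 0.0548), by label (0.0603), and without the 10 early libraries whose label and group differ (0.0686). Sox6 in outer ONL against olfactory nerve was called with replicate number as a block (-0.79 ± 0.20, adjusted p = 0.0196) and not without it. Sox5 and Sox6 also act with Sox9 in cartilage formation. At E13.5 and at E16.5, the olfactory nerve library highest in both genes also had the highest sum of cartilage markers. The 8 markers summed to 5734 CPM in replicate 2 of E16.5 olfactory nerve and to 955, 2133 and 2315 CPM in replicates 1, 3 and 4. That library had the highest Sox5, Sox6 and Sox9, the last at 96.8 CPM against 35.0 to 65.3 CPM. It also had the highest Sox10 of its group. Its sum of radial glia and astrocyte genes was the highest as well (2849 CPM against 1138 to 1578 CPM). So was its sum of Schwann cell genes (676 CPM against 411 to 542 CPM). At E13.5 the library labelled olfactory nerve replicate 7 had the highest cartilage sum, 594 CPM against 81.7 to 307 CPM, and the highest Sox5, Sox6 and Sox9 of its group. It was not the highest of its group for either glial list. Over groups 8 of 8 cartilage genes were called lower in outer ONL than in olfactory nerve at E16.5 (11.8% of all genes), opposite to Sox5. The part of cartilage or of glia in these levels was not tested.

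Sox13 was low throughout, and lower in ONL than in olfactory nerve at E13.5. It ranged from 7.54 to 13.7 CPM with a median of 10.9 CPM in E13.5 nerve and measured 1.38, 1.56, 2.60, 2.95 and 3.37 CPM in E13.5 ONL, with no overlap and a change of -2.07 ± 0.28 (adjusted p = 8.66e-07) that was -0.15 by label (adjusted p = 0.761). At E16.5 it measured 5.57, 5.98, 6.74 and 8.02 CPM in olfactory nerve and 2.11, 2.82, 3.09 and 3.49 CPM in inner ONL, a change of -1.19 ± 0.32 (adjusted p = 0.00399) with no overlap. Outer ONL, at 2.38, 4.05, 5.52 and 6.28 CPM, overlapped both. Trigeminal nerve, at 7.72, 10.2 and 10.4 CPM, was above outer ONL (-1.05 ± 0.33, adjusted p = 0.0185), a call that was lost without outer ONL replicate 1 (adjusted p = 0.0813) or trigeminal nerve replicate 1 (0.0708) or 3 (0.0599), on total counts (0.0547) and with a replicate block (0.0685). The rise of Sox13 from E13.5 ONL to E16.5 outer ONL (0.89 ± 0.31, adjusted p = 0.0201) was lost without outer ONL replicate 2 (0.0603) or 4 (0.0957) or the library labelled E11.5 olfactory nerve replicate 4 (0.0554), and by label the change was -0.95 ± 0.34 (adjusted p = 0.0318). E11.5 nerve measured 4.58, 8.25, 9.24 and 14.4 CPM and overlapped both later nerve groups, whereas by label Sox13 was called higher at E13.5 than at E11.5 (2.16 ± 0.36, adjusted p = 2.29e-04). Ephb3 (r = 0.89), Tead3 (r = 0.88) and Tbx2 (r = 0.87) were most like Sox13, and Macf1 (r = 0.76), A230057D06Rik and 2700081O15Rik (both r = 0.75) most like Sox6.

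Zbtb20, a zinc-finger repressor known in cortical neurons and in astrocyte formation, rose between E13.5 and E16.5 and was highest in ONL. At E16.5 it measured 400.4, 484, 556 and 732 CPM in outer ONL and 362, 402, 482 and 505 CPM in inner ONL. It measured 177, 227, 235 and 332 CPM in olfactory nerve and 41.2, 59.9 and 62.7 CPM in trigeminal nerve. The ONL parts overlapped each other, and ONL, olfactory nerve and trigeminal nerve did not. Zbtb20 was higher in outer ONL than in olfactory nerve (1.16 ± 0.20, adjusted p = 6.91e-05) and trigeminal nerve (3.31 ± 0.25, adjusted p = 1.65e-11), higher in inner ONL than in olfactory nerve (0.85 ± 0.20, adjusted p = 0.0012), and higher in olfactory than in trigeminal nerve (2.15 ± 0.23, adjusted p = 3.50e-08).

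The earlier groups lay closer together for Zbtb20. The E11.5 nerve libraries measured 73.4, 76.9, 81.8 and 116 CPM, E13.5 nerve ranged from 84.9 to 151 CPM with a median of 117 CPM, and E13.5 ONL measured 117, 121, 131, 137 and 148 CPM. E13.5 nerve overlapped both other groups, and every E13.5 ONL library was above every E11.5 nerve library, a pair that was not tested. Neither E13.5 ONL nor E11.5 nerve differed from E13.5 nerve by the test, with p-values too small through shared embryos. From E13.5 to E16.5 Zbtb20 rose by 1.06 ± 0.17 in olfactory nerve (adjusted p = 3.48e-05) and by 2.06 ± 0.19 from ONL to outer ONL (adjusted p = 1.30e-09), with no overlap between stages in either, and both calls held by label (1.096 ± 0.19 and 2.44 ± 0.21). Xylt1 (r = 0.95), Fat1 and Sema6a (both r = 0.92) were most like Zbtb20 over the libraries. The Zbtb20 locus, chr16:42875881-43642602 on the plus strand, shares 104 exon bases with the antisense gene Gm9968, which held 1025 counts over all libraries.

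Myrf, the factor that switches on myelin genes in oligodendrocytes (chr19:10208272-10240748, minus strand), was low in all groups. It measured 4.16, 5.72, 7.27 and 11.2 CPM in E11.5 nerve and averaged 3.39 ± 1.64 CPM (SD, n = 7) in E13.5 nerve, 2.45 ± 0.70 CPM (n = 5) in E13.5 ONL, 2.72 ± 1.76 CPM in E16.5 nerve, 1.93 ± 0.77 CPM in the outer and 1.41 ± 0.76 CPM in the inner ONL (n = 4 each) and 1.11 ± 0.28 CPM (n = 3) in trigeminal nerve. Neighbours in this order overlapped. Its single call, from libraries that partly share embryos, was a fall from E11.5 to E13.5 nerve (-1.07 ± 0.42, adjusted p = 0.0455), which was lost without any 1 of 13 libraries (adjusted p = 0.0501 to 0.197, the highest without the library labelled E13.5 ONL replicate 3) and was 0.25 by label (adjusted p = 0.766). By label Myrf was instead called higher in E13.5 ONL than in nerve (1.24 ± 0.40, adjusted p = 0.0308) and lower in E16.5 outer ONL than in E13.5 ONL (-1.82 ± 0.48, adjusted p = 0.00425). Nr6a1os (r = 0.76), Gm12454 (r = 0.75) and Fbxl20 (r = 0.72) were most like it.

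**Figure D3:**
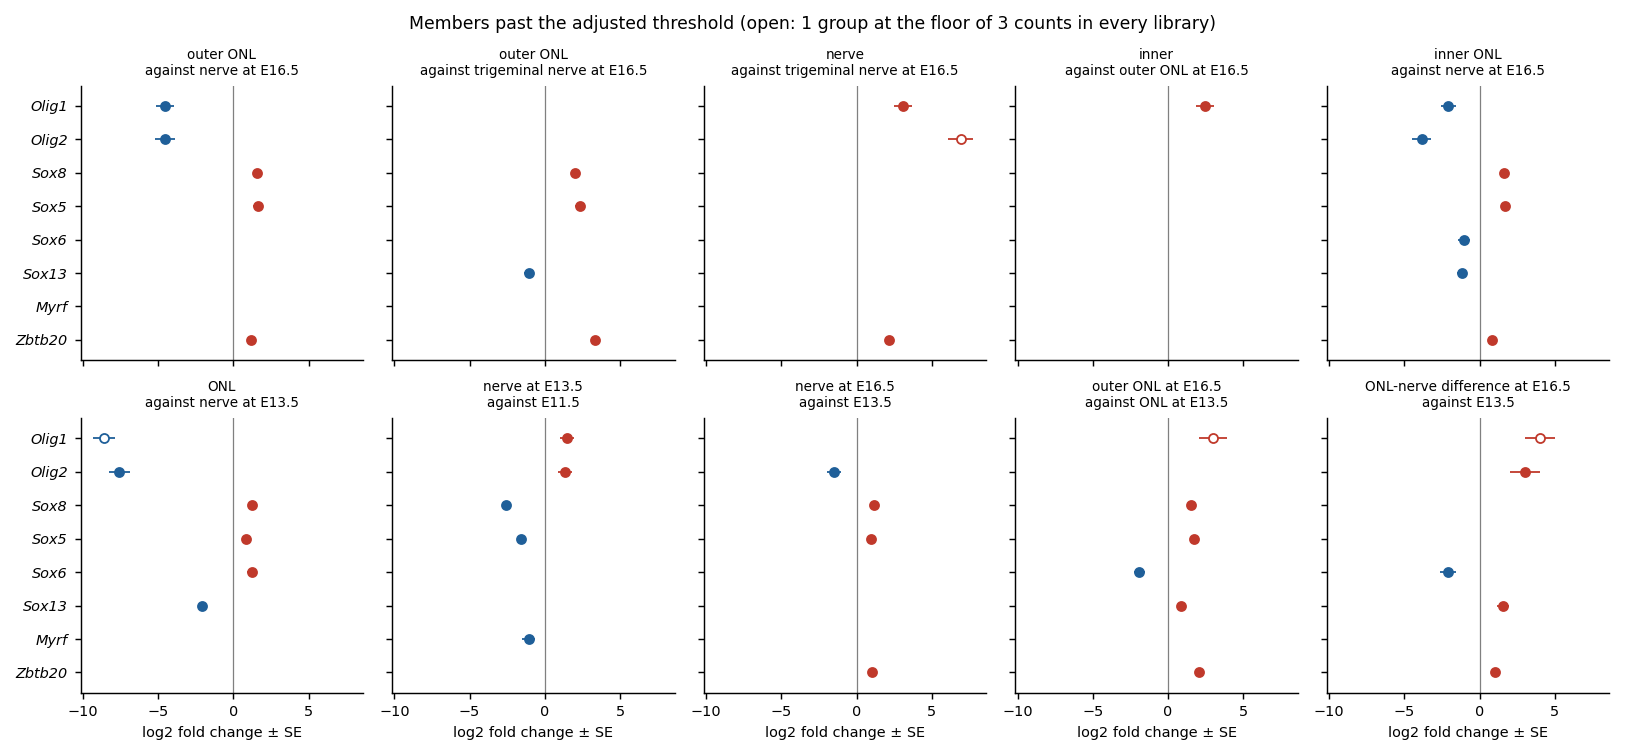
Log2 fold changes ± SE of the members called in each of 10 comparisons, red where the first group was higher and blue where it was lower. Open circles mark changes in which 1 group had 3 counts or fewer in every library, whose fitted size depends on the prior count. Olig1 and Olig2 lie left of 0 and Sox8, Sox5 and Zbtb20 right of 0 in outer and inner ONL against olfactory nerve at E16.5.

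Counted by comparison, 5 of the 8 tested members were called in outer ONL against olfactory nerve at E16.5 (3 higher, 2 lower), where 22% of all tested genes were called, 10.2% higher and 11.8% lower. Against trigeminal nerve, 4 were called in outer ONL (3 higher, 1 lower, all genes 25.8%, with 2617 of 19332 genes higher and 12.3% lower) and 3 in olfactory nerve (all higher, all genes 23.6%, with 13% higher and 10.6% lower). On total counts, where all changes of the last comparison moved up by 0.26, 5 were called there, with Sox5 at 1.00 ± 0.33 and Myrf at 1.51 ± 0.56 added. Inner against outer ONL called 1 (higher, all genes 14.1%, with 8.2% higher and 5.94% lower), and inner ONL against olfactory nerve called 7 (3 higher, 4 lower, all genes 35.5%, with 17.7% higher and 17.8% lower). The olfactory nerve libraries are shared by several of these comparisons.

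At the earlier stages, where p-values are too small because libraries share embryos, 6 members were called between ONL and olfactory nerve at E13.5 (3 higher, 3 lower), against 31.5% of all genes, 15.4% higher and 16.1% lower. From E11.5 to E13.5 nerve 5 were called (2 higher, 3 lower, all genes 36.6%, with 20.2% higher and 16.4% lower) and from E13.5 to E16.5 nerve 4 (3 higher, 1 lower, all genes 28.8%, with 15.2% higher and 13.6% lower). From E13.5 ONL to E16.5 outer ONL 6 were called (5 higher, 1 lower), and this was also the comparison with the most calls over all genes, 41.9%, with 21.9% higher and 20% lower. It includes Olig1 (adjusted p = 0.00915), which held 5 to 11 counts a library in outer ONL. By group means, with E13.5 ONL set at 3 counts a library, Olig1 was at least 1.60-fold higher in outer ONL, but the libraries overlapped. By label the change was -4.63 ± 0.97, and Olig2 was then also called (-4.98 ± 1.01). The median log2 fold change of the 8 tested members was 1.52 from E13.5 ONL to outer ONL and -0.51 in outer ONL against olfactory nerve, and that of all tested genes 0 and 0.01.

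Whether the ONL-nerve difference itself changed was tested as an interaction, the outer ONL minus nerve difference at E16.5 less the ONL minus nerve difference at E13.5. Its p-values are too small for the same reason. It was called for 5 members (4 higher, 1 lower) and 12.3% of all genes, 5.59% higher and 6.75% lower. The interaction was positive for Olig2 (3.03 ± 1.00, adjusted p = 0.0434), which was called lower in ONL than in nerve at both stages. It was also positive for Sox13 (1.55 ± 0.42, adjusted p = 0.0112). Sox13 was called lower in ONL than in nerve at E13.5, whereas at E16.5 outer ONL and nerve overlapped without a call. The interaction was negative for Sox6 (-2.09 ± 0.52, adjusted p = 0.00588) and positive for Zbtb20 (1.00 ± 0.26, adjusted p = 0.00932). The value for Olig1 (4.02 ± 1.01, adjusted p = 0.00677) depends on the prior count, since E13.5 ONL held no library over 3 counts, and so does that for Olig2, with 1 of 5 E13.5 ONL libraries over 3 counts and 2 of 4 outer ONL libraries at 0. The Olig2 call was lost without any 1 of 18 libraries (adjusted p = 0.0511 to 0.231, the highest without E16.5 outer ONL replicate 2), on total counts (0.0591), with DESeq2's size factors (0.0508) and without the filter (0.0518). By label the interactions of Olig1 (-3.86 ± 1.14) and Olig2 (-3.64 ± 1.17) were called in the other direction, and those of Sox6 (-0.59 ± 0.54, adjusted p = 0.531) and Sox13 (-0.38 ± 0.46, adjusted p = 0.66) did not pass, which leaves Zbtb20 (1.35 ± 0.29) as the one call kept in direction under both groupings.

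**Figure D4:**
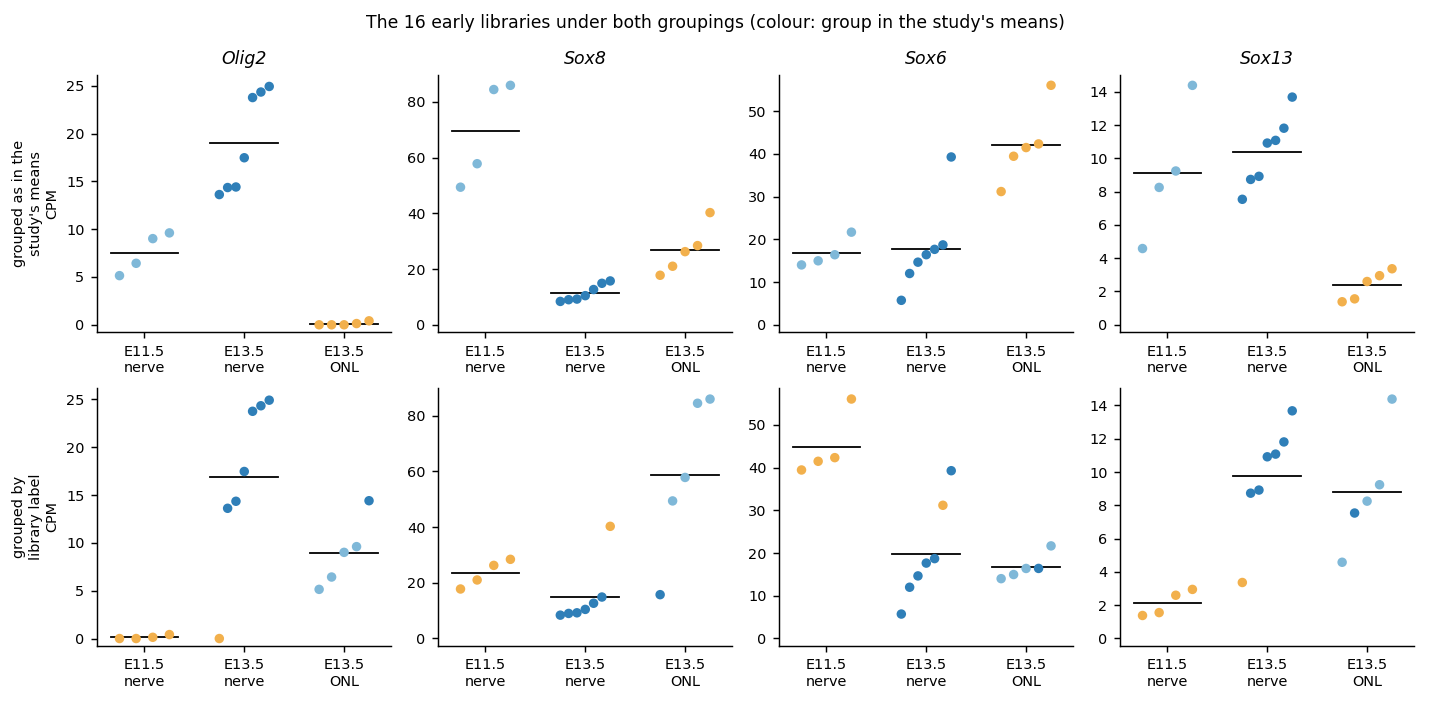
CPM of Olig2, Sox8, Sox6 and Sox13 in the 16 early libraries, grouped as in the published means (upper row) and by library label (lower row), each point coloured by its group in those means and bars showing group means. By label, the 4 libraries of the E11.5 nerve group and 1 of the E13.5 nerve group come from the E13.5 ONL group and have the lowest Olig2.

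Relative to Sox10 in the same library, the levels of the E16.5 groups were ordered otherwise. Sox10 was higher in outer ONL (2.36 ± 0.27, adjusted p = 1.32e-07) and inner ONL (2.13 ± 0.27, adjusted p = 2.21e-07) than in olfactory nerve. The log2 ratio of Sox8 to Sox10 was -2.24 ± 0.19 (SD, n = 4) in E16.5 olfactory nerve, -3.06 ± 0.24 (n = 4) in outer ONL, -2.76 ± 0.31 (n = 4) in inner ONL and -4.07 ± 0.24 (n = 3) in trigeminal nerve, so that every outer ONL library lay below every olfactory nerve library, inner ONL overlapped both, and trigeminal nerve lay below all of them. It averaged -2.23 ± 0.25 (n = 4) in E11.5 nerve, -2.25 ± 0.60 (n = 7) in E13.5 nerve and -2.34 ± 0.39 (n = 5) in E13.5 ONL, groups between which the level of Sox8 itself differed. The ratio of Sox5 was -2.13 ± 0.44 in E16.5 olfactory nerve, -2.81 ± 0.20 in outer ONL, -2.45 ± 0.28 in inner ONL and -4.17 ± 0.35 in trigeminal nerve, with trigeminal nerve again below all others.

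The ratio of Zbtb20 was 0.95 ± 0.15 (SD, n = 4) in E16.5 olfactory nerve, above every ONL library, where it averaged -0.28 ± 0.23 (n = 4) in outer and -0.30 ± 0.36 (n = 4) in inner ONL. It was -2.62 ± 0.39 (n = 3) in trigeminal nerve and -1.89 ± 0.43 (n = 4) in E11.5 nerve, against 1.05 ± 0.51 (n = 7) in E13.5 nerve. Relative to Sox10, Olig1 and Olig2 were highest in E13.5 nerve (-1.28 ± 0.56 and -1.55 ± 0.61, n = 7). In the groups near 3 counts their ratios follow Sox10 and the 0.5 CPM added to both levels, and their order was not read. These ratios are descriptions without a test. Per kilobase of exon, Sox8 at 24.8 ± 3.73 CPM per kb exceeded Zbtb20 at 17.7 ± 4.60 and Sox5 at 6.48 ± 1.45 CPM per kb in outer ONL (SD, n = 4), whereas Sox10 reached 212 ± 19.9 CPM per kb.

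**Figure D5:**
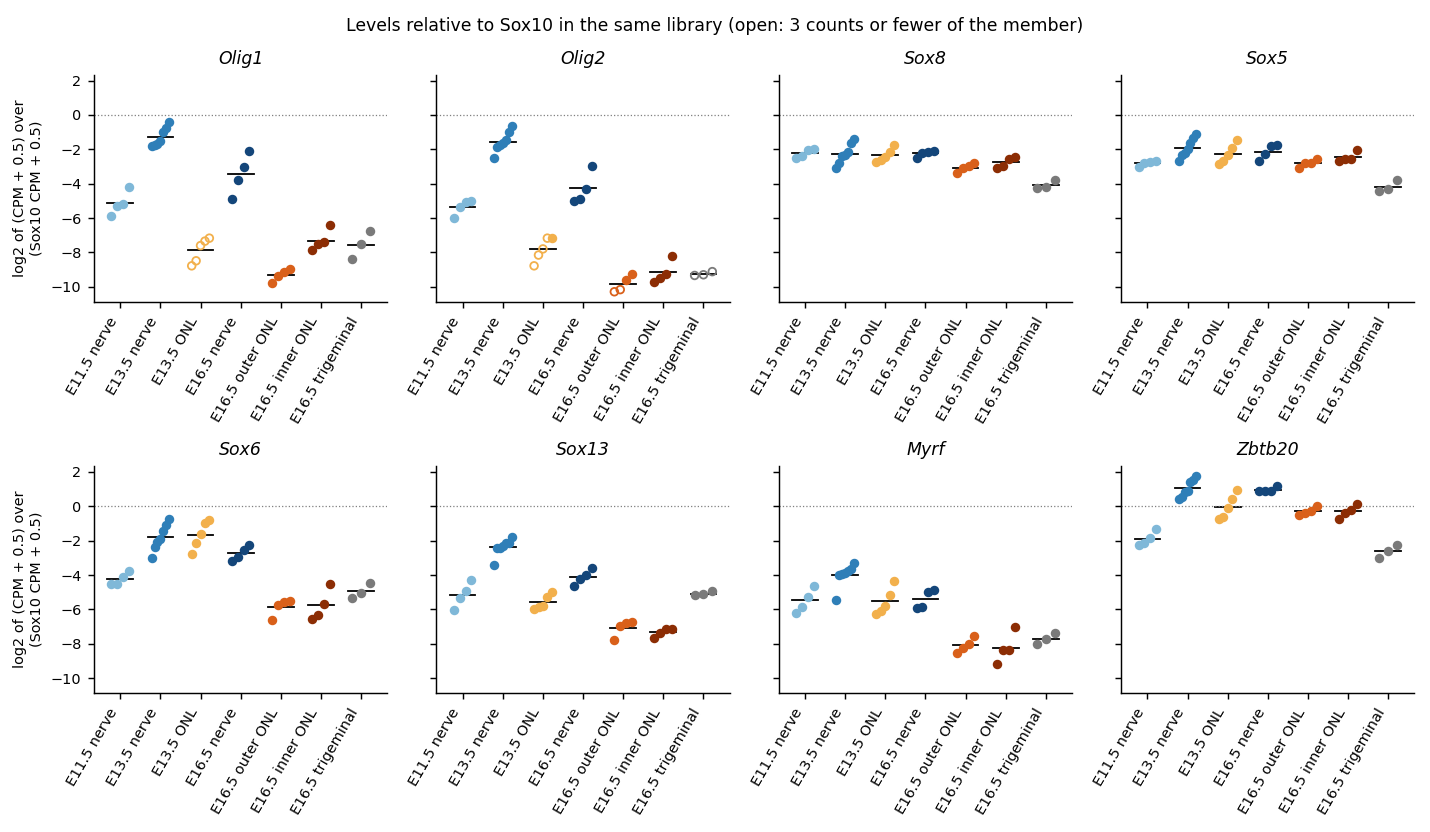
Log2 ratio of each tested member to Sox10 in the same library after adding 0.5 CPM to both, by group, with bars at group means and open points where the member had 3 counts or fewer. The group means of Sox8 and Sox5 lie between -3.06 and -1.90 in the olfactory groups and lower in trigeminal nerve, and Zbtb20 lies above 0 in E13.5 and E16.5 olfactory nerve.

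The other genes of the lineage also split between the parts of the nerve. Of 22 precursor genes, 21 were tested, and in outer ONL against olfactory nerve at E16.5 7 were higher and 6 lower with a median of -0.26, against 10.2% and 11.8% of all genes. The higher ones included Ptprz1, a receptor phosphatase that holds precursors back (489 ± 33.8 CPM against 68.3 ± 19.0 CPM, n = 4 each), the Notch target Hes5 (30.8 ± 5.84 against 2.46 ± 0.80 CPM) and the repressor Zfp488 (35.5 ± 6.25 against 6.59 ± 3.10 CPM). The lower ones included the growth factor receptor Pdgfra (148 ± 48.6 against 290 ± 43.2 CPM), which mesenchyme also makes, the proteoglycan gene Cspg4 and the receptor Gpr17. Sox9, the third SoxE gene, was lower in inner ONL than in olfactory nerve (-1.70 ± 0.41, adjusted p = 0.00136) and lower in ONL than in nerve at E13.5 (-1.14 ± 0.34, adjusted p = 0.00952), opposite to Sox8 and Sox10. By label the Sox9 means at E13.5 lay the other way, at 127 ± 27.7 CPM in ONL (SD, n = 5) and 78.7 ± 46.5 CPM in nerve (n = 7). In outer ONL against trigeminal nerve 9 precursor genes were higher and 3 lower (all genes 25.8% in either direction), in olfactory against trigeminal nerve 7 and 3 (23.6%), in inner against outer ONL 3 and 5 (14.1%), and in inner ONL against olfactory nerve 9 and 9 (35.5%). Between ONL and nerve at E13.5 8 were higher and 7 lower (31.5%), from E11.5 to E13.5 nerve 5 and 3 (36.6%), from E13.5 to E16.5 nerve 7 and 6 (28.8%), from E13.5 ONL to outer ONL 9 and 6 (41.9%), and in the interaction 4 and 3 (12.3%).

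Of 20 maturation and myelin genes, 16 were tested. The olfactory nerve had 2 higher and 11 lower than trigeminal nerve (all genes 13% and 10.6%), with a median of -2.22. Against trigeminal nerve, outer ONL had 2 higher and 9 lower (all genes 2617 of 19332 and 12.3%), with a median of -1.53. Myelin basic protein (Mbp) averaged 1114 ± 230.4 CPM (SD, n = 3) in trigeminal nerve and between 20.7 and 49.5 CPM in the olfactory groups of E16.5, and Mag 155 ± 13.4 CPM against means of 1.89 to 7.15 CPM. Outer ONL had 6 higher and 4 lower than olfactory nerve (all genes 10.2% and 11.8%) and inner ONL 3 and 6 (17.7% and 17.8%). Inner against outer ONL had 0 and 4 (8.2% and 5.94%). At E13.5 ONL had 6 higher and 3 lower than nerve (15.4% and 16.1%). By stage 9 rose and 0 fell from E11.5 to E13.5 nerve (all genes 20.2% and 16.4%), 8 and 0 from E13.5 to E16.5 nerve (15.2% and 13.6%) and 10 and 2 from E13.5 ONL to outer ONL (21.9% and 20%). The interaction called 2 higher and 1 lower (5.59% and 6.75%). Opalin, a gene of mature oligodendrocytes, was at or under 3 counts in every library, and Mobp in every olfactory library.

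Markers of other tissue differed between the groups in which the members differed. The 12 olfactory bulb neuron and progenitor genes summed to 14.3 to 177 CPM in outer ONL and 433 to 866 CPM in inner ONL. Of the 12, 11 were called higher in inner than outer ONL (8.2% of all genes), as Olig1 was. The 12 genes summed to 879 to 1158 CPM in E13.5 ONL and 104 to 140 CPM in E13.5 nerve, where the Olig genes went the other way. The 8 radial glia and astrocyte genes, which OECs share in part, summed to 14405 to 26424 CPM in the outer and 16589 to 21700 CPM in the inner ONL, 1138 to 2849 CPM in E16.5 nerve and 287 to 330.3 CPM in trigeminal nerve. The 8 Schwann cell genes summed to 2625 to 3524 CPM in trigeminal nerve and 228 to 676 CPM in the olfactory groups of E16.5. The 8 mesenchyme genes summed to 920.1 to 2166 CPM in inner ONL, 5730 to 11005 CPM in outer ONL, 9541 to 16178 CPM in olfactory nerve and 23474 to 27612 CPM in trigeminal nerve. In the same order, the 5 endothelium genes summed to 223 to 338, 326 to 612, 306 to 678 and 386 to 754 CPM, and the 6 macrophage genes to 139 to 175, 188 to 278, 277 to 573 and 321 to 363 CPM. The 6 red cell genes summed to 1574 to 3055, 2768 to 8232, 2705 to 9860 and 5259 to 10314 CPM. By these sums outer ONL overlapped olfactory nerve for the mesenchyme, endothelium, macrophage and red cell lists, though not for radial glia and astrocyte genes. Of these 4 lists, inner ONL overlapped it for endothelium and red cells only. Gene by gene, 5 of 8 mesenchyme genes and 1 of 5 endothelium genes were called lower in outer ONL than in olfactory nerve (all genes 11.8%). In these 4 lists 0 were called higher (10.2%). The part of these tissues in the members' levels was not tested.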

How the data were processed

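RNA from laser-cut pieces was amplified with SMART-Seq v4 and made into Nextera XT libraries, which do not mark strand. The authors aligned paired-end reads to mm10 with TopHat2 2.1.0 and deposited raw read counts per gene from HTSeq, whose version and strand setting are not given in the sources used here. The single row without a gene name was left out. The 10 members and all gene lists were chosen with earlier results of these data known. The E11.5 and E13.5 libraries were grouped so that their averages equal the published group means, which they did to within 0.0004% at the 95th percentile of genes. By label the median gene differed by 32.7% in E13.5 ONL, 3.60% in E13.5 nerve and 38.7% in E11.5 nerve.

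The 31 libraries were fitted together with edgeR 4.0.16 (filterByExpr, TMM, quasi-likelihood test, R 4.3.3), with p-values adjusted by Benjamini-Hochberg over 19332 genes. The scripts were tested on simulated counts. The deposited counts gave 3512627 to 36705535 per library, so members at or under 3 counts carry no usable level. Levels are TMM-scaled CPM, and ratios to Sox10 use 0.5 CPM added to both genes. Changes are given for the members called in a comparison and the others by level or count. For each called member, the genes named as most like it are the 3 tested genes with the highest Pearson r in log2 CPM (prior count 2).

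Alternatives were DESeq2 1.42.0, its size factors, total counts, no filter, at least 1 CPM in 4 libraries, grouping by label, the E16.5 libraries alone, each library left out, and a replicate block. After the data were seen, fits without the block and without the 10 early libraries whose label differs were added. Deviations of same-numbered E16.5 olfactory nerve and outer ONL libraries from their group means correlated with r = 0.13 to 0.26. For differently numbered libraries of these groups r was -0.23 to 0.23. The ranges overlap, so these values cannot show whether the numbers pair the groups, and the block was kept as an alternative. The E16.5 groups share embryos, but no label ties a number to an embryo. Gene positions are GENCODE M21 on GRCm38, promoter windows RefSeq on GRCm38.p6. Figures used Matplotlib 3.10.9.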

Additional observations from a re-analysis of the deposited data

Results flagged for a closer look

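In 3 of 49 groups of 4 to 7 libraries, 1 library stood far from the others by Dixon's test on CPM without a log. For normally distributed values chance alone gives this in about 1 in 20 groups, a rate that was not checked for CPM. All 3 libraries were the highest of their group. Olig1 was 55.6 CPM in the library labelled E13.5 olfactory nerve replicate 4, against 11.3 to 29.3 CPM in the other E13.5 nerve libraries. Sox5 was 55.2 CPM in the library labelled E13.5 ONL replicate 4, against 41.4 to 42.8 CPM in the rest of the E11.5 nerve group. Sox6 was 39.3 CPM in the library labelled E13.5 olfactory nerve replicate 7, against 5.72 to 18.7 CPM, and that library also had the highest cartilage marker sum of its group.

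The interaction test of edgeR, for a difference between ONL and olfactory nerve that changed from E13.5 to E16.5, called 5 members. The fitted value was 4.02 for Olig1 (adjusted p = 0.00677), 3.03 for Olig2 (adjusted p = 0.0434), -2.09 for Sox6 (adjusted p = 0.00588), 1.55 for Sox13 (adjusted p = 0.0112) and 1.00 for Zbtb20 (adjusted p = 0.00932), in log2 units. The values of Olig1 and Olig2 depend on the prior count, since E13.5 ONL was at or near 0 for both, and the Olig2 call was lost in 21 of 37 alternatives. By label Olig1 (-3.86), Olig2 (-3.64) and Sox13 (-0.38) changed direction and Sox6 lost its call (-0.59, adjusted p = 0.531). These p-values are over libraries of which some early ones share an embryo.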

How the results depend on the processing

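Of the 46 calls of a member in a comparison, 23 kept direction and side of the threshold in every alternative run, and of 1786 values under an alternative 70 lost the call and 7 changed direction. All 7 came from grouping the early libraries by label, which moves 10 libraries between groups: Sox6 in ONL against nerve at E13.5 (-0.25), Myrf from E11.5 to E13.5 nerve (0.25), Olig1 (-4.63) and Sox13 (-0.95) from E13.5 ONL to outer ONL, and the interactions of Olig1 (-3.86), Olig2 (-3.64) and Sox13 (-0.38). By label the count of members called went from 1 to 0 in inner against outer ONL and from 7 to 5 in inner ONL against olfactory nerve. It went from 6 to 3 in ONL against nerve at E13.5 and from 5 to 4 from E11.5 to E13.5 nerve. From E13.5 to E16.5 nerve it went from 4 to 1, and in the interaction from 5 to 3. For inner against outer ONL, DESeq2 and each of the other alternatives run called 1. On total counts 5 rather than 3 members were called in olfactory against trigeminal nerve.

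Leaving out 1 library at a time gave 3 to 6 members from E11.5 to E13.5 nerve, 3 to 5 in outer ONL against trigeminal nerve and from E13.5 to E16.5 nerve, 3 to 4 in olfactory against trigeminal nerve, 6 to 7 in inner ONL against olfactory nerve, 5 to 6 from E13.5 ONL to outer ONL and 4 to 5 in the interaction, and did not move the other 3 counts. With the replicate number as a block, outer ONL against olfactory nerve called 6 members and outer ONL against trigeminal nerve 3, and the counts of the other E16.5 comparisons were unchanged. The E16.5 groups share embryos, but the labels do not say whether a number marks an embryo. Outside olfactory nerve and outer ONL, not every same-numbered pair deviated together (lowest correlations -0.15 to 0.03). Depth limits Nkx2-2 and Nkx6-2 throughout, and Olig1 and Olig2 in ONL and trigeminal nerve.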
